A study of Mus musculus with 8 samples.

Results

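The genes described here are the core enzymes and adaptors of DNA methylation in the mouse. They comprise the methyltransferase genes Dnmt1, Dnmt3a and Dnmt3b, the hemimethylated-DNA readers Uhrf1 and Uhrf2, and the dioxygenase genes Tet1, Tet2 and Tet3. Every non-control probe whose gene name in the array files was one of these symbols was taken, which gave 18 probes for 8 genes, out of 39429 probes and 30139 gene names. The brightest probe of a gene over all arrays stands for it, and the other probes are given beside it. Each array carried total RNA of mSCC-20, a cutaneous squamous cell carcinoma line from an FVB/N mouse. Cells had been transfected with miR-193b-3p (2 arrays), with miR-365a-3p (2 arrays) or with the control microRNA labelled miR_NC, here NC (4 arrays). The labels also give an amount of 0.2 µg for both miR-193b arrays and 2 NC arrays, and of 0.6 µg for both miR-365a arrays and the other 2 NC arrays. The arrays of each amount form the 0.2 set and the 0.6 set. Each microRNA was set against the 2 NC arrays of its own set. All groups share the 1 cell line, and the labels do not say what the amount refers to or whether replicates were separate cultures. The p values therefore measure only the spread between these arrays, and 2 arrays per group limit the precision.

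DNA methylation is copied after replication. UHRF1 binds DNA that carries the methyl mark on the parental strand only, modifies histone H3, and thereby brings DNMT1 to the new strand. DNMT3A and DNMT3B place methyl groups on unmethylated DNA, and the TET enzymes oxidise methylcytosine, which is then lost by dilution or by base excision repair. In the epidermis, Uhrf1 and Dnmt1 are known from human keratinocytes to be needed to keep progenitor cells dividing, and Dnmt3a and Dnmt3b have been studied as suppressors or promoters of squamous tumours in mice.

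The transfected microRNAs are shown because they define the comparisons. Both mature sequences are from RefSeq, build GRCm38.p6, written 5′ to 3′ with the seed, bases 2 to 8, in capitals. The gene of miR-193b-3p lies at chr16:13449570-13449591 on the plus strand, and a copy of miR-365-3p lies in the same cluster at chr16:13453895-13453916 on the plus strand. The labels call the second microRNA miR-365a-3p, and the RefSeq entry is named mmu-miR-365-3p.
mmu-miR-193b-3p: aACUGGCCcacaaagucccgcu
mmu-miR-365-3p: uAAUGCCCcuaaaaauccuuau
The seeds differ, so the microRNAs belong to different seed families. Target sites in the 8 transcripts were not looked for here.

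Levels are log2 processed signal minus the array's 75th percentile, so that 0 is the 75th percentile, and levels of different probes are not comparable with each other. The threshold for a call was an adjusted p under 0.05 in limma, with Benjamini-Hochberg adjustment over 17849 tested genes. Each array held 43020 gene spots. The share of spots well above background ran between 51.4% and 54.6% on arrays of the 0.2 set, and between 58.9% and 62.1% on arrays of the 0.6 set. The whole 0.6 set was on 1 slide, while slide 1 held miR-193b replicate 1 and NC replicate 1 of the 0.2 set, and the other 0.2 arrays had a slide each. The array design file also differed between the sets, so that amount, slide and design version cannot be told apart. All 11 keratinocyte markers were well above background on all 8 arrays. The brightest were Krt5 and Krt14, with a lowest level of 8.01 and 7.38. The dimmest were Cdh1, between -1.52 and -0.44, and Epcam, between 0.56 and 1.49. Of the marker lists of other cell types, 1 to 3 of 6 fibroblast, 2 to 5 of 6 leukocyte, 2 to 3 of 5 endothelial and 1 to 3 of 4 melanocyte genes were well above background on an array. Itgam, Cd3e, Kdr, Esam, Pdgfra and Mlana were above it on all 8 arrays, with levels between 1.29 and 2.47 for Itgam and between 0.08 and 2.23 for Kdr. Col3a1, Lum, Dcn, Lyz2, Cdh5, Tek and Dct were above it on none.

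The comparisons asked which of the 8 genes changed when the carcinoma cells received either microRNA. Dnmt3b was called after both, higher after miR-193b and lower after miR-365a. Uhrf1 was called after miR-365a and was lower. After miR-193b 1 of the 8 genes was called and 1 was higher, where 2.9% of all tested genes were called, 1.73% higher and 1.17% lower. After miR-365a 2 of 8 were called and both were lower, where 15.9% of all tested genes were called, 7.84% higher and 8.05% lower. The arrays of the microRNA and of NC did not overlap for 3 of the 8 genes after miR-193b, against 52.4% of all genes, and for 6 of 8 after miR-365a, against 61.6% of all genes. With so few genes these shares describe the 8 genes and say nothing about them as a group. Because bulk RNA was measured, fewer cells that express a gene and less RNA of it per cell cannot be told apart.

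**Figure D1:**
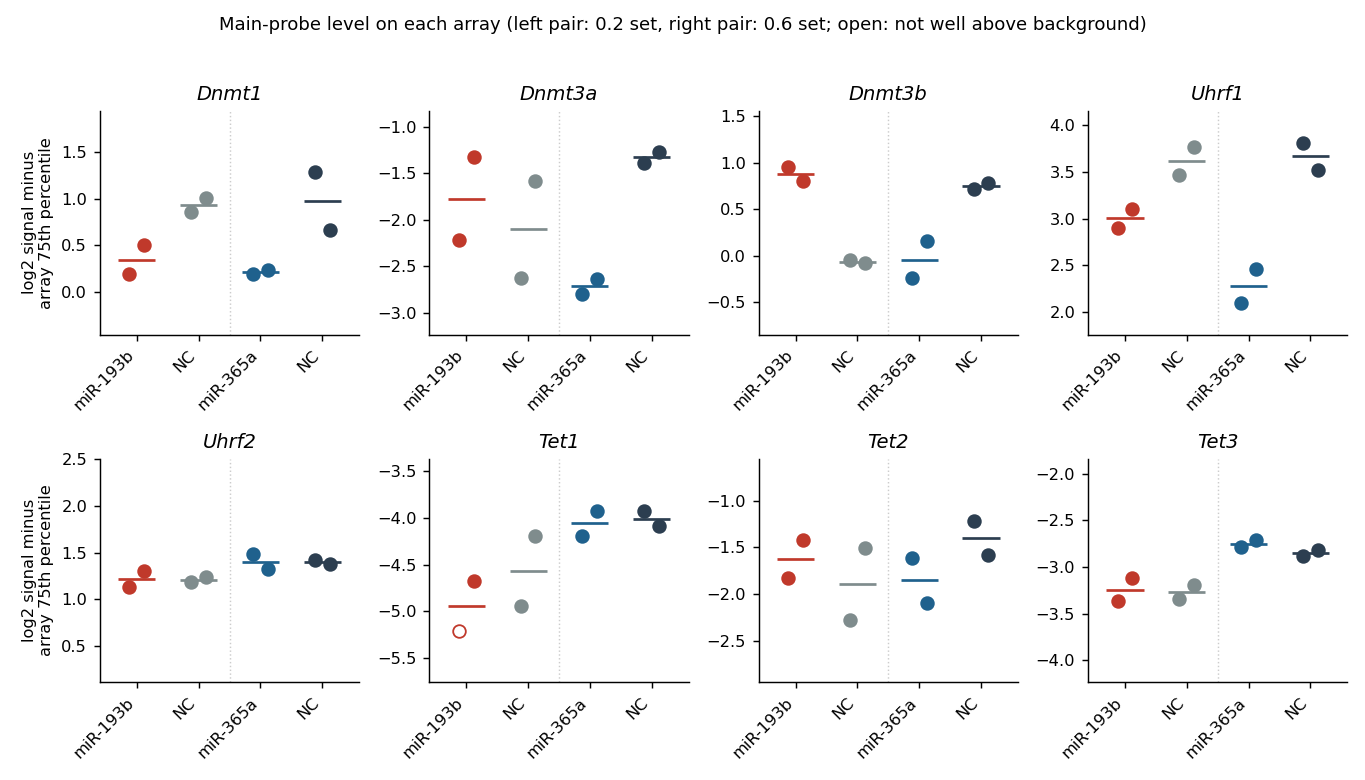
Level of the main probe of each gene on each of the 8 arrays (vertical axis, log2 signal minus the array's 75th percentile), with miR-193b left of NC in the 0.2 set and miR-365a left of NC in the 0.6 set. Points are arrays, lines are means of 2 arrays, and the open point, Tet1 on miR-193b replicate 1, was not well above background. Both miR-365a arrays lie below both NC arrays of their set for Uhrf1 and for Dnmt3b, and both miR-193b arrays lie above both NC arrays of their set for Dnmt3b.

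Uhrf1, whose protein recognises newly replicated DNA and recruits DNMT1, fell after miR-365a. Its main probe read 2.10 and 2.46 on the miR-365a arrays, against 3.82 and 3.53 on the NC arrays of the 0.6 set. Both miR-365a arrays were more than 1 log2 unit below both NC arrays. The fitted fall was 2.62-fold (log2 difference -1.39 ± 0.19, SE, limma adjusted p = 0.00892). After miR-193b the same probe read 2.90 and 3.11, against 3.47 and 3.77 on the NC arrays of the 0.2 set. These groups did not overlap either, yet the difference of -0.62 ± 0.19 was not called (adjusted p = 0.146), and it was -0.57 within slide 1 and -0.66 between slides 3 and 2. With the log2 values that the authors deposited, the miR-193b difference was -0.71 and was called (adjusted p = 0.0490). The group means were 3.00 ± 0.15 after miR-193b, 2.28 ± 0.26 after miR-365a, 3.62 ± 0.21 on NC arrays of the 0.2 set and 3.67 ± 0.21 on those of the 0.6 set (SD, n = 2 each). The NC arrays of the sets overlapped (difference between the sets 0.05 ± 0.19, adjusted p = 0.877), and the miR-365a arrays were the lowest of the 8. The miR-365a call was lost without miR-365a replicate 1 (-1.21, adjusted p = 0.0549) and without NC replicate 1 of the 0.6 set (-1.25, adjusted p = 0.0555).

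A second Uhrf1 probe lies upstream of the main one on mm9 and crosses an intron, so it reads spliced transcript. The main probe matches chr17:56462770-56462829 and the second chr17:56451668-56452321, on the plus strand, a span of 654 bases for 60 bases of probe. The second probe read -4.89 and -4.16 after miR-365a, against -3.01 and -3.12 on NC arrays of the 0.6 set. It was called as well (-1.46 ± 0.23, adjusted p = 0.0127), in a fit over 23274 probes of which 15.8% were called after miR-365a. After miR-193b it read -3.86 and -3.90, against -3.11 and -3.10 on NC arrays of the 0.2 set (-0.78 ± 0.23, adjusted p = 0.135), where 2.31% of the probes were called. Both Uhrf1 probes thus lay on the same side of NC in each comparison, with no overlap between arrays. Of all genes 52.4% did not overlap after miR-193b and 61.6% after miR-365a, and both probes were read on the same arrays.

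Dnmt1 encodes the methyltransferase that copies the mark to the new strand. Its single probe read 0.19 and 0.23 after miR-365a, against 1.29 and 0.66 on NC arrays of the 0.6 set. It read 0.19 and 0.50 after miR-193b, against 0.85 and 1.01 on NC arrays of the 0.2 set. In both sets the microRNA arrays were below the NC arrays without overlap, and the NC arrays of the 0.6 set were the more widely spread. Neither difference was called, at -0.76 ± 0.22 after miR-365a (adjusted p = 0.0690) and -0.59 ± 0.22 after miR-193b (adjusted p = 0.205). The miR-365a difference passed the threshold in 4 of 17 alternative settings, over which its adjusted p was 0.0337 to 0.237. Without NC replicate 1 of the 0.6 set it was -0.45, and without NC replicate 2 it was -1.08.

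The probe letters behind the Uhrf1 and Dnmt1 readings show what was measured. Both 60-base probes are written 5′ to 3′ in lower case as in the array files; the Dnmt1 probe matches the minus strand of mm9 chromosome 9 from 20712341 down to 20711973 and also crosses an intron. The intron-crossing probe of Uhrf1 comes first.
Uhrf1 probe: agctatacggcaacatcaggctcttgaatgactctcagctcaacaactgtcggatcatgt
Dnmt1 probe: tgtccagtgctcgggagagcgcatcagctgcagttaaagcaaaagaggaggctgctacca
Promoters were read from RefSeq, build GRCm38.p6, as 250 bases before to 50 bases after each annotated start. They were searched on both strands for the E2F-type motifs TTTCCCGC, TTTCGCGC, TTTGCCGC and TTTGGCGC, the letters bound by the transcription factors that drive genes of DNA replication. Of 13 promoters of the 8 genes 2 held a match, 1 of Uhrf1 and 1 of Dnmt1, while 2.26% of 32851 mouse promoters held one. These promoters are chr17:56304063-56304362 on the plus strand for Uhrf1 and chr9:20952574-20952873 on the minus strand for Dnmt1, with the matches in capitals.
Uhrf1 promoter: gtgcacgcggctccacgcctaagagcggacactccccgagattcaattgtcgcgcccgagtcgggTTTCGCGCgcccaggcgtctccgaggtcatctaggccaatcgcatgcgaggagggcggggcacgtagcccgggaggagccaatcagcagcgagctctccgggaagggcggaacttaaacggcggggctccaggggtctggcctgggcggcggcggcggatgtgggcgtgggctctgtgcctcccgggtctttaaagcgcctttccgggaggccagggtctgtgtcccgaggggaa
Dnmt1 promoter: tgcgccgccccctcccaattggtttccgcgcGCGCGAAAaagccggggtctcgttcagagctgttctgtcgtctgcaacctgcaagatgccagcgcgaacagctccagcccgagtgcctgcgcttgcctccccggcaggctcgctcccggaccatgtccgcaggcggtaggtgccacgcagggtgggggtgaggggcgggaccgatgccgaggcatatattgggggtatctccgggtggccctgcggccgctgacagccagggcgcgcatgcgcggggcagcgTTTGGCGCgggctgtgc
The Uhrf1 match begins 185 bases before the start and the first Dnmt1 match 219 bases before it, and the second Dnmt1 match follows the start. A match is a description of letters and not of binding, and the windows of the other 6 genes hold no such letters. All 4 motifs contain CG. The matching promoters hold 33 CG each, with 68.3% G and C for Uhrf1 and 69.7% for Dnmt1. Over all mouse promoters the medians were 7 and 52.7%. The 2.26% was not taken over promoters of like composition, so it is no matched background for these matches.

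Uhrf2, the paralog of Uhrf1, was not called at its main probe. That probe read 1.49 and 1.32 after miR-365a, against 1.42 and 1.38 on NC arrays of the 0.6 set, and 1.13 and 1.30 after miR-193b, against 1.18 and 1.24 on NC arrays of the 0.2 set. The groups overlapped in both sets, and the 95% intervals of the log2 difference ran from -0.29 to 0.30 in each comparison (adjusted p = 0.992 and 0.986). The second Uhrf2 probe lies upstream at chr19:30130768-30130827 on the plus strand of mm9, while the main probe is at chr19:30167958-30168017. It read -1.06 on miR-365a replicate 1 and averaged -1.03 over both miR-365a arrays, against -1.85 and -1.60 on NC arrays of the 0.6 set, and was called higher (0.70 ± 0.15, adjusted p = 0.0269). After miR-193b it read -1.86 and -1.97, against -1.84 and -1.59 on NC arrays of the 0.2 set (-0.20 ± 0.15, adjusted p = 0.461). The Uhrf2 probes therefore disagreed after miR-365a, and which transcript forms each of them reads was not tested. The upstream probe is the one that carries the call.
Uhrf2 upstream probe: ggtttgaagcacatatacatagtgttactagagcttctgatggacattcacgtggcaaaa

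Dnmt3b encodes a methyltransferase that acts on unmethylated DNA, and it is the gene of the 8 that was called in both comparisons. Its main probe, at chr2:153513403-153513462 on the plus strand of mm9, read 0.95 and 0.80 after miR-193b, against -0.05 and -0.08 on NC arrays of the 0.2 set. It read -0.24 and 0.16 after miR-365a, against 0.72 and 0.78 on NC arrays of the 0.6 set. The miR-193b arrays were above their NC arrays and the miR-365a arrays below theirs, without overlap in either set. Dnmt3b rose 1.92-fold after miR-193b (log2 difference 0.94 ± 0.16, adjusted p = 0.0403) and fell 1.73-fold after miR-365a (-0.79 ± 0.16, adjusted p = 0.0229).

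The NC arrays of the sets differed from each other at this probe by 0.82 ± 0.16, higher in the 0.6 set (adjusted p = 0.0229), and 15.6% of tested genes were called in that comparison. The group means were 0.87 ± 0.11 after miR-193b, -0.04 ± 0.28 after miR-365a, -0.07 ± 0.02 on NC arrays of the 0.2 set and 0.75 ± 0.05 on NC arrays of the 0.6 set (SD, n = 2 each). The miR-193b arrays thus lay next to the NC arrays of the other set, and so did the miR-365a arrays, whose range took in both NC arrays of the 0.2 set. None of the other 7 genes was called between the NC arrays of the sets at its main probe. A dim Tet1 probe (1.84 ± 0.38, adjusted p = 0.0298) and the dimmest Tet3 probe (2.31 ± 0.35, adjusted p = 0.0138) were called. Neither was well above background on the NC arrays of the 0.2 set. The other Dnmt3b probes differed by 0.43 ± 0.18 (adjusted p = 0.154) and 0.65 ± 0.27 (adjusted p = 0.146) and were not called. What separates the NC arrays cannot be told apart from amount, slide and design version.

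The other Dnmt3b probes, at chr2:153512991-153513050 and chr2:153512098-153512157 upstream of the main one, differed in the same directions by less. After miR-193b they differed from NC by 0.65 ± 0.18 (adjusted p = 0.117) and 0.52 ± 0.27 (adjusted p = 0.319). After miR-365a they differed by -0.67 ± 0.18 (adjusted p = 0.0538) and -0.67 ± 0.27 (adjusted p = 0.148). Arrays of the microRNA and of NC overlapped at none of the 3 probes in either set, and only the main probe was called. Of all genes 52.4% did not overlap after miR-193b and 61.6% after miR-365a. The 3 probes were read on the same arrays, so they are not independent of each other. The miR-193b difference was 1.00 within slide 1 and 0.88 between slides 3 and 2, and with the slide as a fixed block it was 1.00 with an adjusted p of 0.162. The miR-193b call was lost when any 1 of the 8 arrays was left out (0.86 to 1.02, adjusted p = 0.0639 to 0.133). The miR-365a call was lost without miR-365a replicate 1 (-0.59, adjusted p = 0.101), NC replicate 1 (-0.83, adjusted p = 0.0964) or NC replicate 2 of the 0.6 set (-0.76, adjusted p = 0.0903).

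Dnmt3a encodes the other methyltransferase of unmethylated DNA. Its single probe read -2.79 and -2.63 after miR-365a, against -1.39 and -1.27 on NC arrays of the 0.6 set. Both miR-365a arrays were more than 1 log2 unit below both NC arrays. The 2.61-fold difference was not called (log2 difference -1.38 ± 0.40, adjusted p = 0.0676), and it was called in 9 of 17 alternative settings (adjusted p = 0.0185 to 0.231). After miR-193b the probe read -2.22 and -1.32, against -2.63 and -1.58 on NC arrays of the 0.2 set, and the groups overlapped (0.33 ± 0.40, adjusted p = 0.661). In the 0.2 set the lower array of each group was replicate 1, and these 2 arrays were on slide 1. Replicates of a group were about 1 log2 unit apart, and the part of the slide in this was not tested. Within slide 1 the miR-193b difference was 0.40, and between slides 3 and 2 it was 0.26.

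**Figure D2:**
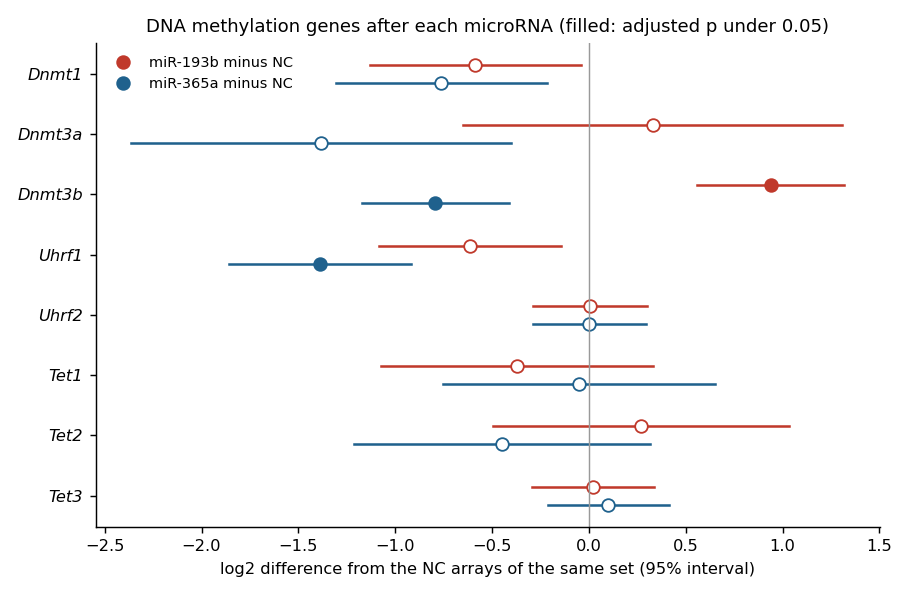
Fitted log2 difference of each gene from the NC arrays of the same set (horizontal axis), after miR-193b in red above and miR-365a in blue beneath it, with 95% intervals from limma. Filled points passed an adjusted p of 0.05, which Dnmt3b did after both microRNAs, at 0.94 and -0.79, and Uhrf1 after miR-365a, at -1.39.

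The TET genes encode the enzymes that begin the removal of the methyl mark, and none of their main probes was called. Tet1 was dim and read -5.21 and -4.68 after miR-193b, against -4.95 and -4.20 on NC arrays of the 0.2 set, and the first miR-193b array was not well above background. After miR-365a it read -4.20 and -3.92, against -3.93 and -4.09 on NC arrays of the 0.6 set. The groups overlapped in both sets, with differences of -0.37 ± 0.29 after miR-193b (adjusted p = 0.486) and -0.05 ± 0.29 after miR-365a (adjusted p = 0.944). A second Tet1 probe was not well above background on any array of the 0.2 set or on NC replicate 2 of the 0.6 set, and another was not above it on any of the 8 arrays.

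Tet2 read -1.83 and -1.42 after miR-193b, against -2.28 and -1.50 on NC arrays of the 0.2 set. It read -1.61 and -2.09 after miR-365a, against -1.22 and -1.59 on NC arrays of the 0.6 set. The groups overlapped in the 0.2 set and stood narrowly apart in the 0.6 set. The differences of 0.27 ± 0.32 after miR-193b (adjusted p = 0.644) and -0.45 ± 0.32 after miR-365a (adjusted p = 0.404) were not called. The other Tet2 probes differed from NC by 0.23 and 0.06 after miR-193b and by -0.41 and -0.16 after miR-365a, and none was called; the dimmest was not well above background on the arrays of slide 1.

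Tet3 read -3.36 and -3.12 after miR-193b, against -3.34 and -3.19 on NC arrays of the 0.2 set, and -2.78 and -2.71 after miR-365a, against -2.88 and -2.82 on NC arrays of the 0.6 set. The differences were 0.02 ± 0.13 after miR-193b (95% interval -0.29 to 0.34, adjusted p = 0.938) and 0.10 ± 0.13 after miR-365a (-0.21 to 0.42, adjusted p = 0.679). An upstream Tet3 probe, at 83352802 to 83352743 on the minus strand of mm9 chromosome 6, read -3.25 and -2.90 after miR-365a, against -4.37 and -3.87 on NC arrays of the 0.6 set. It was called higher (1.04 ± 0.26, adjusted p = 0.0421), unlike the main probe at 83319779 to 83319720. After miR-193b the upstream probe read -4.001 and -4.535, against -4.65 and -4.86 on NC arrays of the 0.2 set (0.49 ± 0.26, adjusted p = 0.331). The dimmest Tet3 probe was not well above background on any array of the 0.2 set, and in the 0.6 set it differed by 0.40 ± 0.35 (adjusted p = 0.523). As with Uhrf2, the call after miR-365a came from an upstream probe. The upstream Uhrf1 and Dnmt3b probes differed in the direction of their main probes. After miR-365a 3 of 9 tested probes other than the main ones were called, where 15.8% of all probes were called. So few probes are not read as a group. The upstream Tet3 probe is shown here, and which transcript forms it reads was not tested.
Tet3 upstream probe: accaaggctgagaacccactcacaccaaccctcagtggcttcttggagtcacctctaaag

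**Figure D3:**
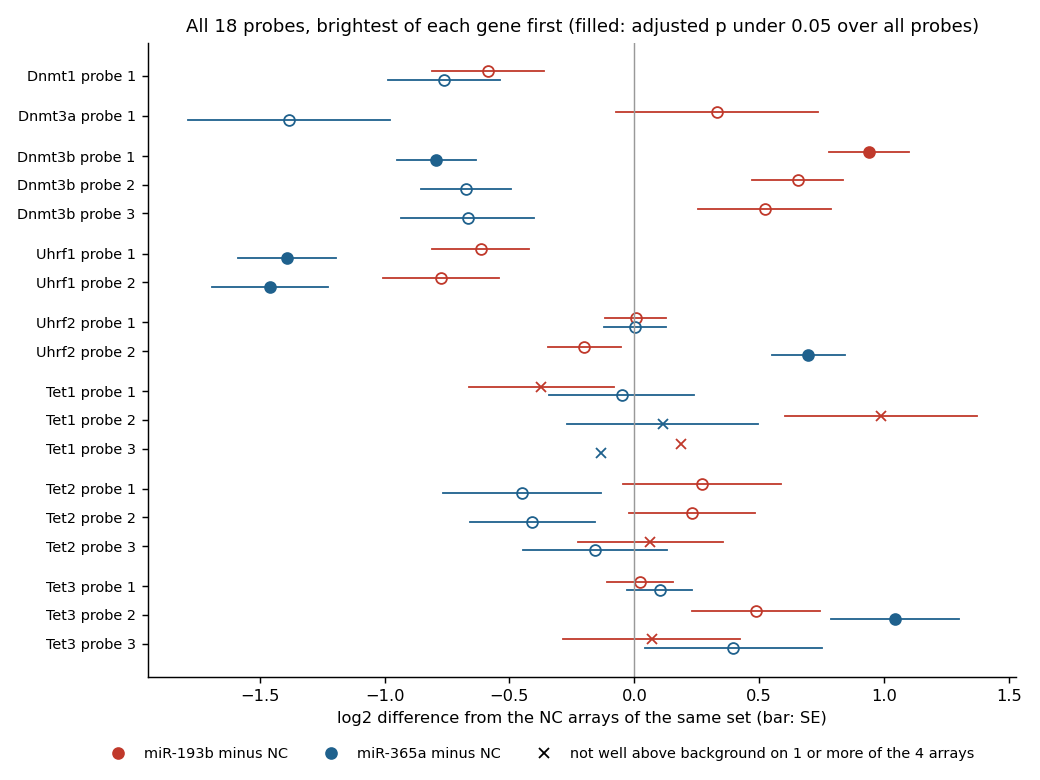
Log2 difference from the NC arrays of the same set (horizontal axis, bar the SE of the fit over all probes) for all 18 probes, brightest of each gene first, after miR-193b in red and miR-365a in blue. Filled points passed an adjusted p of 0.05 over all probes, and crosses mark probes not well above background on 1 or more of the 4 arrays. The 3 Dnmt3b probes and the 2 Uhrf1 probes lie together, while the second Uhrf2 and the second Tet3 probe are apart from the main probe after miR-365a.

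Whether the microRNAs differed in their effects was tested directly, as the miR-365a effect minus the miR-193b effect, each against its own NC arrays. Dnmt3b was the 1 gene of the 8 whose effects differed (-1.73 ± 0.22, adjusted p = 0.0188), where 3.54% of all tested genes were called. Its other probes gave -1.33 ± 0.26 (adjusted p = 0.0512) and -1.19 ± 0.38 (adjusted p = 0.147), and of all probes 3.35% were called. Dnmt3a gave -1.71 ± 0.57 (adjusted p = 0.166) and Uhrf1 -0.78 ± 0.27 (adjusted p = 0.187), so a larger effect of miR-365a on these genes was not shown. For Dnmt1 the 95% interval of the difference ran from -0.94 to 0.59, and for the main Uhrf2 probe from -0.42 to 0.41. The upstream Uhrf2 probe gave 0.90 ± 0.21 and was not called (adjusted p = 0.0724). The Dnmt3b difference was called without NC replicate 2 of the 0.2 set and lost without any 1 of the other 7 arrays (adjusted p = 0.0430 to 0.0823).

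Genes that act with the 8 genes were described by list. Partners of maintenance methylation include Hells and the Cdca7 genes, which open chromatin for remethylation. After miR-365a 2 of 13 tested partners were called, both lower, a share near the 15.9% of all tested genes, and after miR-193b limma called 0 of 13, with 4 at an unadjusted p under 0.05. Cdca7l read -3.27 and -3.24 after miR-365a, against -2.25 and -2.41 on NC arrays (-0.93 ± 0.13, adjusted p = 0.00921). Cdca7 read 1.52 and 1.89, against 2.53 and 2.39 (-0.76 ± 0.19, adjusted p = 0.0467). After miR-193b the values of Cdca7l and Cdca7 were -0.64 ± 0.13 (adjusted p = 0.0610) and -0.90 ± 0.19 (adjusted p = 0.0676). The list median was -0.21 in both comparisons, where the median of all tested genes was 0.05 after miR-193b and 0.02 after miR-365a. Of 5 tested partners of de novo methylation, among them Dnmt3l and the histone methyltransferase gene Nsd1, limma called 0 in either comparison, with 2 at an unadjusted p under 0.05 after miR-193b and 1 after miR-365a.

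Methyl-CpG binding proteins read the mark. After miR-365a Zbtb33, which encodes the reader Kaiso, was the 1 of 10 called, higher by 0.63 ± 0.13 (adjusted p = 0.0292). Of all tested genes 15.9% were called after miR-365a, 7.84% higher, so this count is not read as a result about the list. The list medians were -0.07 after miR-193b and 0.13 after miR-365a.

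Genes of demethylation and base excision repair were called after miR-365a and not after miR-193b, 4 of 18 against 0 of 18 in limma, without a test of that difference. Of all tested genes 15.9% were called after miR-365a and 2.9% after miR-193b, so the counts are not read as results about the list. At an unadjusted p under 0.05 there were 5 in each comparison. Among the 18, Cxxc5 was above background on 0 arrays of the 0.2 set and on 1 miR-365a array. It was tested only because both NC arrays of the 0.6 set passed the filter, and it was not called. It enters the list with 0.68 after miR-193b and -0.97 after miR-365a. Tdg, whose glycosylase removes the oxidised bases that the TET enzymes make, read -2.48 and -2.64 after miR-365a, against -1.25 and -1.33 on NC arrays of the 0.6 set. It fell 2.42-fold (-1.27 ± 0.13, adjusted p = 0.00439). Lig3, the DNA ligase of the last repair step, read -1.43 and -1.78, against 0.20 and -0.20, and fell 3.05-fold (-1.61 ± 0.19, adjusted p = 0.00554). Each of these genes had both miR-365a arrays more than 1 log2 unit below both NC arrays. The glycosylase gene Smug1 also fell (-0.59 ± 0.13, adjusted p = 0.0304), and Idh1, an enzyme that supplies the TET cofactor oxoglutarate, rose (1.12 ± 0.17, adjusted p = 0.0110). The list median was 0.03, near that of all genes. After miR-193b Tdg and Lig3 differed by 0.01 ± 0.13 and -0.02 ± 0.19.

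In the methyl donor cycle, which makes and recycles S-adenosylmethionine, 3 of 13 genes were called by limma after miR-365a and 0 of 13 after miR-193b, with 5 and 2 at an unadjusted p under 0.05. Against 15.9% and 2.9% of all tested genes, these counts are not read as results about the list either. Mtap, of methionine salvage, rose (1.18 ± 0.25, adjusted p = 0.0273), and the methionine synthase gene Mtr rose (0.50 ± 0.12, adjusted p = 0.0373). Ahcyl1, a relative of the enzyme that clears S-adenosylhomocysteine, fell (-0.68 ± 0.17, adjusted p = 0.0412). The list medians were 0.05 after miR-193b and -0.15 after miR-365a. Of 20 germline genes known to be silenced by promoter methylation in somatic cells, 3 to 5 were well above background on an array, on 3 and 3 miR-193b and 3 and 4 NC arrays of the 0.2 set, and 3 and 5 miR-365a and 5 and 4 NC arrays of the 0.6 set. Only 4 were bright enough to be tested, of which limma called 0 in either comparison, with 1 at an unadjusted p under 0.05 after miR-193b and 0 after miR-365a. Sycp1, Taf7l and Brdt were above background on all 4 arrays of each comparison. The remaining gene, Stag3, was above it on 0 arrays of the 0.2 set and on 1 miR-365a array. It was tested only because both NC arrays of the 0.6 set passed the filter. The median of the 4 was 0.12 after miR-193b, with 1 below 0, and -0.38 after miR-365a, with 4 below 0. Stag3 enters these values with 0.28 and -0.61, so they are not read as results about the list.

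Genes of S phase were followed because Uhrf1 and Dnmt1 are expressed in replicating cells. The list was chosen with earlier results of these data known, so its counts describe it and test nothing. After miR-365a 11 of 34 were called, all lower, where 8.05% of all tested genes were called lower, and the list median was -0.60, with 32 of 34 below 0. Cdc6 and Cdt1, which load the replicative helicase, fell by 1.95 ± 0.19 (adjusted p = 0.00442) and 1.14 ± 0.13 (adjusted p = 0.00569) on the log2 scale. The helicase subunit gene Mcm5 fell by 1.66 ± 0.20 (adjusted p = 0.00617), and Rrm2, a subunit of ribonucleotide reductase, fell by 1.00 ± 0.14 (adjusted p = 0.00918). After miR-193b 1 of 34 was called, Cdc45 (-1.09 ± 0.17, adjusted p = 0.0350), a share near the 2.9% of all tested genes. The list median after miR-193b was -0.50, with 33 of 34 below 0. At an unadjusted limma p under 0.05 there were 19 of 34 after miR-193b and 24 of 34 after miR-365a. Of all 17849 tested genes, 3827 and 5594 were under it. The log2 of the summed level of the list was 7.92 and 8.01 after miR-193b, against 8.32 and 8.47 on NC arrays of the 0.2 set, and 7.69 and 7.62 after miR-365a, against 8.47 and 8.07 on NC arrays of the 0.6 set. The list was lower on the microRNA arrays in both sets, as Uhrf1 and Dnmt1 were, and its part in their levels was not tested. Marker genes of cell type that were called were Itga6 (-0.80) and Krt8 (0.61) after miR-365a and Esam (0.89) after miR-193b. These were 1 lower and 1 higher of 11 keratinocyte genes, and 1 of 3 endothelial genes. Of all tested genes 15.9% were called after miR-365a and 2.9% after miR-193b, so these counts are not read as results about the lists. The calls held in 11, 9 and 6 of 17 alternative settings for Itga6, Krt8 and Esam. The part of these genes was not tested either.

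**Figure D4:**
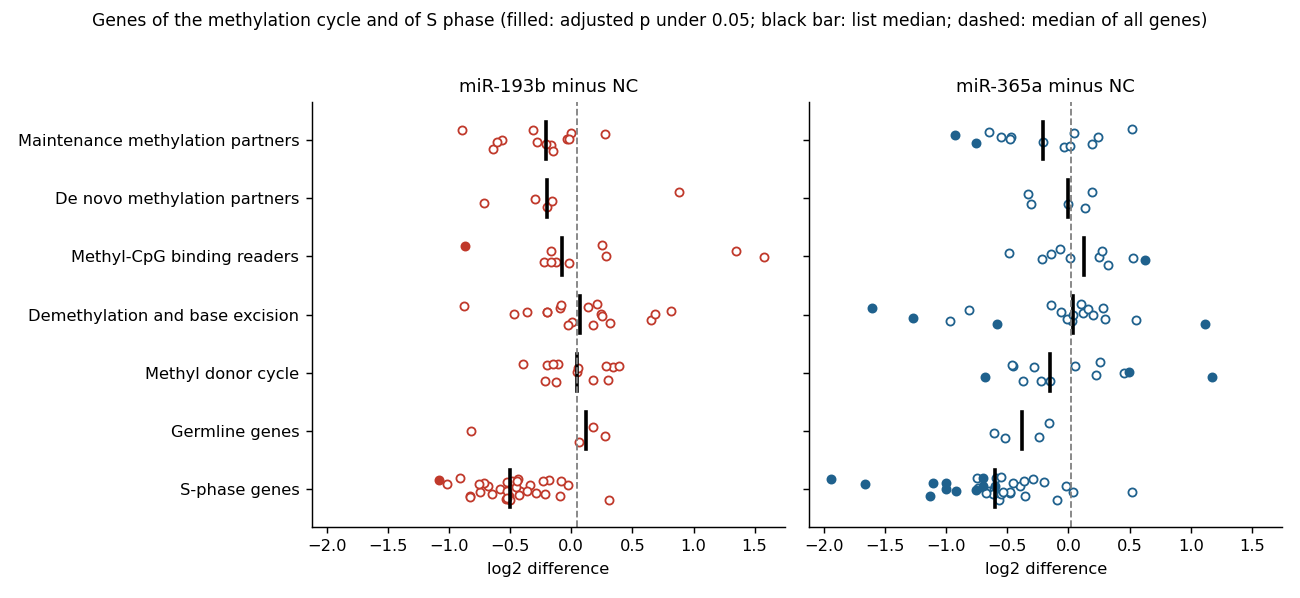
Log2 difference from NC (horizontal axis) of the tested genes of each list, after miR-193b on the left and after miR-365a on the right. Points are genes, filled where the adjusted p was under 0.05, black bars are list medians and the dashed line is the median of all tested genes. The S-phase list lies to the left in both panels, with medians of -0.50 and -0.60, and Tdg and Lig3 are the low filled points of the base excision list after miR-365a.

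Of the 21 list genes called after miR-365a, 5 stayed called when any 1 array was left out, namely Tdg, Lig3, Cdc6, Cdt1 and Mcm5. The call of Cdc45 after miR-193b held without NC replicate 2 of the 0.2 set and was lost without any 1 of the other 7 arrays, at adjusted p up to 0.138.

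For Dnmt3b and Uhrf1, the genes with the most similar pattern were sought among 14567 genes with a probe well above background on all arrays. Likeness was the root mean square difference over the 8 arrays, each array as log2 minus the NC mean of its set, and it reflects only these 8 arrays. For Dnmt3b the nearest were 9330102E08Rik (0.112), Dcun1d4 (0.127) and Nkapd1 (0.140), where the median over all genes was 0.665. Their log2 differences were 0.98, 0.89 and 0.79 after miR-193b and -0.59, -0.60 and -0.62 after miR-365a. For Uhrf1 the nearest were Slco3a1 (0.0991), Ier5l (0.109) and Il4i1 (0.137), where the median was 0.817. These differed by -0.51, -0.52 and -0.56 after miR-193b and by -1.40, -1.32 and -1.50 after miR-365a.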

How the data were processed

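Total RNA from 8 mSCC-20 samples carried Cy3 on Agilent mouse arrays read in 1 colour. Spot intensity is the processed signal, which per the file headers Feature Extraction 10.7.3.1 subtracted for background and detrended within an array. The authors also deposited a table of log2 values that looks quantile normalized; the submitters' processing notes name limma, and the background correction is not given in the sources used here. Each array's 75th percentile of the processed signal was subtracted on the log2 scale, and repeat spots were averaged. A RefSeq table named 27508 of 39429 probes by accession, 3544 by symbol and 404 by synonym, while 7973 kept the file's name. Probe positions are on mm9, as in the files, which do not give exons or UTRs. A gene was tested where its brightest probe exceeded background clearly on every array of 1 or more groups. Limma 3.58.1 in R 4.3.3 fitted the 8 arrays jointly on set and microRNA, leaving 4 residual degrees of freedom and 2.30 from the prior. Second probes were tested in the same fit over probes. Dim arrays were kept in the fits at their measured signal. The fits were tested on simulated data. The 8 genes and the 12 gene lists were chosen with earlier results of these data known, and a list is described by counts and a median without a test. Some list results are not reported here. Named list genes are up to 4 called per list and comparison with the smallest p. The alternatives were normexp with an offset of 50, the deposited log2 table, other filters, each set alone, other variance models, the slide as a block, the mean of all probes and each array left out. Tables used pandas 2.3.3 and numpy 2.4.6 under Python 3.11.15, and figures matplotlib 3.10.9.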

Additional observations from a re-analysis of the deposited data

Results flagged for a closer look

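The effects of the microRNAs on Dnmt3b differed in a test of the difference itself, with a miR-365a effect minus miR-193b effect of -1.73 ± 0.22 on the log2 scale (limma adjusted p = 0.0188). Both miR-193b arrays were higher than both of their NC arrays, and both miR-365a arrays were lower than both of theirs. Beside it, the NC arrays of the 0.6 set were higher than those of the 0.2 set by 0.82 ± 0.16, and the part of that difference in the opposed effects was not tested. Of all tested genes 3.54% were called in the test of the difference. The other Dnmt3b probes were not called in it (-1.33 and -1.19, limma adjusted p = 0.0512 and 0.147). The call of the main probe was lost in 10 of 16 alternative settings.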

How the results depend on the processing

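Direction held in all 17 alternatives for Dnmt3b and Uhrf1 after either microRNA, but many of these could not change it. The difference stays the same by construction with other filters, trended robust variance or each set alone, and without an array of the other set. After miR-365a it also stays the same with the slide as a block. Calls did not. Dnmt3b after miR-193b was not called with no filter on dim probes or each set alone (0.94 in both), with the slide as a fixed block (1.00) or with the mean of all probes (0.70), and the leave-outs gave 0.86 to 1.02. Dnmt3b after miR-365a was not called with no filter, each set alone or the slide block (-0.79 in each) or the mean of all probes (-0.71), with leave-outs of -0.99 to -0.59. Uhrf1 after miR-365a was lost in leave-outs alone (-1.57 to -1.21). The Dnmt3b difference of effects was lost with no filter (-1.73), the slide block (-1.79) and the mean of all probes (-1.42), with leave-outs of -1.93 to -1.53. Of the 8 genes, those called after miR-193b numbered 1 in the reported fit, 2 with the deposited values, and 0 with no filter, each set alone, the slide block, the mean of all probes and every leave-out (0 to 0). After miR-365a 2 were called, 4 with normexp, with probes above background on all arrays and with trended robust variance, 1 with no filter and with the mean of all probes, and 0 to 3 in leave-outs. Over all genes 517 were called after miR-193b, 1001 with normexp, 844 with deposited values, 11 with no filter, 891 above background on all arrays, 0 with each set alone (3134 at an unadjusted p under 0.05), 1025 with trended robust variance, 171 with the slide block, 323 with the mean of all probes, and 8 to 276 in leave-outs. After miR-365a 2836 were called, 1055 with no filter and 601 to 2866 in leave-outs. For the difference of effects 632 were called, and 0 to 1123 in the alternatives. Normexp moved the share of higher calls after miR-193b to 71.1%, against 59.6%, no filter moved it to 90.9% of 11 calls, and leave-outs gave 41.5% (without NC replicate 1 of the 0.2 set) to 76.0%. After miR-365a the share was 49.3%, 37.3% with no filter, and 27.0% (without miR-365a replicate 1) to 49.0% in leave-outs. Normexp moved the median of all genes after miR-193b to 0.12, against 0.05. Some differences changed sign, none called, and not all were near 0 (after miR-193b 0.33 for Dnmt3a, 0.27 for Tet2 and -0.37 for Tet1). These were Uhrf2 after miR-193b (-0.0138 deposited, -0.0516 slide block, -0.00486 random block, -0.0981 mean of all probes), Uhrf2 after miR-365a (-0.00341 normexp), its difference of effects (0.0251 deposited, 0.0547 slide block, 0.00791 random block, 0.448 mean of all probes), Tet1 after miR-193b (0.0827 normexp, 0.268 mean of all probes) with its difference of effects (-0.18 and -0.29), Tet3 after miR-193b (-0.0245 slide block) and its difference of effects (-0.12 normexp). Leave-outs ran from -0.19 to 0.85 for Dnmt3a, -0.12 to 0.66 for Tet2, -0.10 to 0.14 for Tet3, -0.0798 to 0.0897 for Uhrf2 and -0.75 to 0.00298 for Tet1 after miR-193b, from -0.0791 to 0.0852 for Uhrf2 and -0.19 to 0.0873 for Tet1 after miR-365a, and for the difference of effects from -0.49 to 0.14 for Dnmt1, -0.0866 to 0.0829 for Uhrf2, -0.0532 to 0.70 for Tet1 and -0.0419 to 0.20 for Tet3. The cause of these changes was not tested, except that leaving out an array leaves fewer samples and no filter adds dim probes. The mean of all probes also takes in the upstream Uhrf2 probe, whose own difference of effects was 0.90. Where a leave-out leaves a group with 1 array, that array is assumed to vary like the others. No paired analysis was possible because replicate numbers only name arrays in accession order.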

Other observations

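At the main probe, all 8 genes were higher on the NC arrays of the 0.6 set than on those of the 0.2 set. The median difference over all tested genes was 0.12. Dnmt3b was called (0.82 ± 0.16, limma adjusted p = 0.0229). Tet3 differed by 0.42 ± 0.13 (adjusted p = 0.0781), and Uhrf1 and Dnmt1 by 0.05 and 0.04.

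Among the methyl-CpG readers, Mbd5 and Zbtb4 had the highest differences after miR-193b, 1.57 ± 0.40 (adjusted p = 0.0947) and 1.35 ± 0.37 (adjusted p = 0.109), and were not called; they were singled out after their values were seen. Mbd5 was well above background on both miR-193b arrays and on 1 of 2 NC arrays. Among the base excision genes, Neil3 differed by -0.88 ± 0.31 after miR-193b (adjusted p = 0.181) and -0.81 ± 0.31 after miR-365a (adjusted p = 0.135), also singled out afterwards.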
